A study of Mus musculus with 5 samples.

Results

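The 10 genes described here mark the primed epiblast and were followed over the arrays of a Tet1 depletion study in mouse embryonic stem cells. They are Fgf5, Otx2, Pou3f1, Sox3, Zic2, Fgf15, Sall2, Foxd3, Sox4 and Sox11. They were chosen by name, with earlier results of these data known, and make up 10 of the 18193 genes that the arrays name with a single symbol. All 25 of their probe sets were examined, and none of these was shared with a second gene symbol. Each gene is given by its brightest probe set (by its mean level on these arrays) unless another is named.

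The 5 Affymetrix arrays hold 1 sample each. J1 cells, a mouse embryonic stem cell line kept here on embryonic fibroblast feeders, were transfected with a control siRNA or a Tet1 siRNA and taken 4 days later. E14 cells, a second stem cell line kept without feeders, received lentivirus with a scrambled hairpin (scramble shRNA) or with Tet1 shRNA3387 or Tet1 shRNA2863 and were taken after 4 days in puromycin. The lines thus also differ in feeders and in how Tet1 was depleted, and these cannot be told apart. No group has a replicate, so a difference between 2 arrays has no error of its own, and 2-fold (1 on the log2 scale) is used below as a threshold of size. Whether the 3 depletions came from separate cultures or days is not given in the labels. Each p-value therefore measures just how far these arrays spread, which may be technical. In the fits below this spread also holds differences between the hairpins and, where both lines share a Tet1 term, between the lines in their response.

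Embryonic stem cells resemble the naive epiblast of the blastocyst. As the embryo implants, the epiblast passes to the primed state, in which it answers to FGF and Nodal signals and can enter the germ layers; naive factors are silenced and genes such as Fgf5, Otx2 and Pou3f1 are switched on. Many of the markers are transcription factors that are used again in the neural plate. Tet1 oxidizes 5-methylcytosine and carries a CXXC domain that binds CpG-rich DNA.

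The promoter sequences of members on both sides of the results show how far these genes differ in CpG content. RefSeq sequence of build GRCm38.p6 was given for 6 of the 10 members and not for Pou3f1, Sox3, Zic2 or Fgf15. Of these 6, Fgf5 and Sall2 were at least 2-fold higher with shRNA3387, and Foxd3 and Otx2 at least 2-fold lower with Tet1 siRNA. The 250 bases before the first start of each follow, 5′ to 3′ on the gene's strand, with every CpG in capitals. They lie at chr5:98253934-98254183 (plus strand) for Fgf5, chr14:52328671-52328920 (minus strand) for Sall2, chr4:99656049-99656298 (plus strand) for Foxd3 and chr14:48667645-48667894 (minus strand) for Otx2.
Fgf5: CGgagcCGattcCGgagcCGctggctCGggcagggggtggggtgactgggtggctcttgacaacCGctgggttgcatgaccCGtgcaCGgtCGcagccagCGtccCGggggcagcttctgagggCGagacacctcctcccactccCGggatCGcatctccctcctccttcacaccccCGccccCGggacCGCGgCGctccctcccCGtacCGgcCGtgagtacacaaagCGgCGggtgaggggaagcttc
Sall2: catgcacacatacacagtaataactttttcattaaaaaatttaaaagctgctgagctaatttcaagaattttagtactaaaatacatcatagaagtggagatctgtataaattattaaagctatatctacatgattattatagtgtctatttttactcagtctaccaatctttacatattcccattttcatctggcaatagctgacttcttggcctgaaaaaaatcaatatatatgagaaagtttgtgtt
Foxd3: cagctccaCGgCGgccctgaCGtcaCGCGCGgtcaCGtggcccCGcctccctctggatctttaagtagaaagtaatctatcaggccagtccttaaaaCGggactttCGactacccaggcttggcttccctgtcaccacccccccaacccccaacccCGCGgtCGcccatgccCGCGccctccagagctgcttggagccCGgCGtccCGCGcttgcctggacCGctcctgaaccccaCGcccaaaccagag
Otx2: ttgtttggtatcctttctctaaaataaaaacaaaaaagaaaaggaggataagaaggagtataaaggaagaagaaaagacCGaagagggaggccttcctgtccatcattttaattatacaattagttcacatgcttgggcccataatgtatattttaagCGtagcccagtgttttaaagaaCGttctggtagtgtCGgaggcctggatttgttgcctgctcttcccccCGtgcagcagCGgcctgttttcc

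Fgf5 and Foxd3 start in CpG-dense sequence, the first start of Otx2 is near the median, and that of Sall2 is poor in CpG. In windows of 300 bases (250 before to 50 after the start) Fgf5 held 29 CpG and Foxd3 25, against 6 for Otx2 and 1 for Sall2 and a median of 7 over all 32851 windows. At least 29 CpG were found in 12.9% of all windows and at least 25 in 18.4%. Sox11, with 21 CpG, and Sox4, with 12, lay between them. Otx2 has 3 further starts with 8, 16 and 11 CpG, and Sall2 has 1 further start with 10. The Otx2 core motif TAATCC, sought on both strands, was present in 1 of the 10 member windows (the third Otx2 start, counted from the 5′ end) and in 7.06% of all windows. ATGCAAAT, the octamer bound by POU factors, was present in 0 of the 10 and in 1.74% of all windows. These are matches of letters in short windows and nothing about binding was measured.

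Tet1 was lower on each array labelled as depleted. Its brightest probe set differed from the control of the same line by -2.54 in J1 with siRNA, -1.71 with shRNA3387 and -0.89 with shRNA2863, and it was lower with shRNA3387 than with shRNA2863 by a difference of -0.82. All 8 markers of stem cell identity in a separate list were above the filter level on all arrays, with median levels between 11.21 and 11.71, as the label of the cells says. The filter level is the 40th percentile of all probe sets on an array, 3.03 to 3.12, and signal under it is hard to tell from background. All 10 members exceeded it on at least 1 array and 9 on every array; Fgf5 did so on 1 array only. Its place among the 13619 genes kept for the fits therefore rests on the array where it was high. Of the 25 member probe sets, 17 were above the filter level on all 5 arrays and 19 on at least 1.

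**Figure D1:**
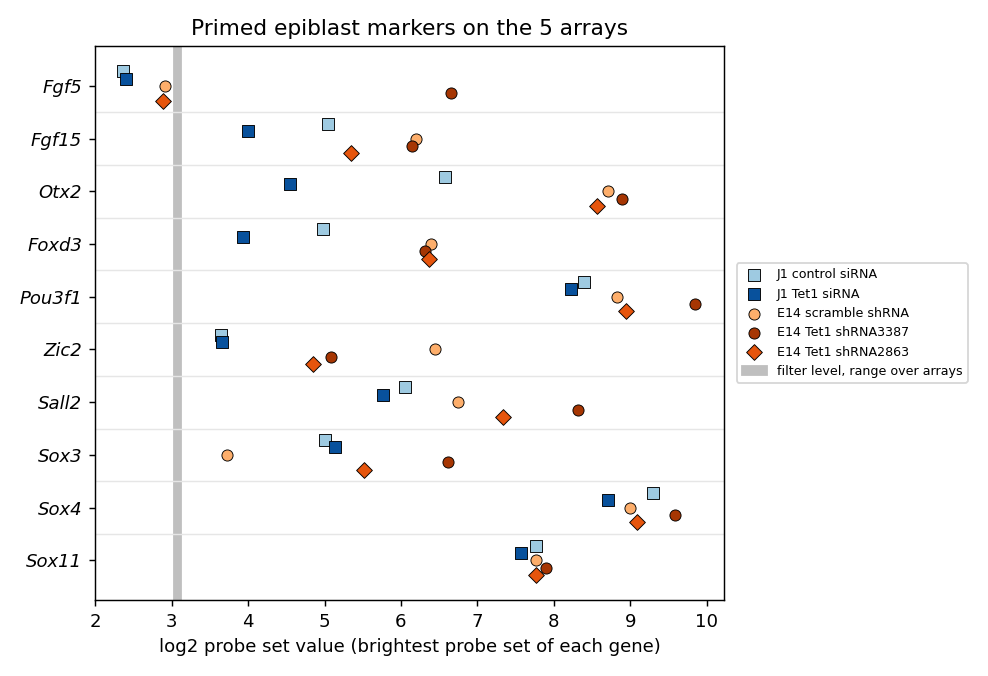
Log2 values of the brightest probe set of each of the 10 primed epiblast markers (rows) on the 5 arrays; each point is 1 array, and the grey band is the filter level of 3.03 to 3.12. Fgf5 stands at 6.65 on the shRNA3387 array and under the band on the other 4, while Sox11 stays between 7.57 and 7.90.

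In J1 cells with Tet1 siRNA, Otx2, Fgf15 and Foxd3 were at least 2-fold lower and no member was 2-fold higher, where 1.10% of all kept genes were at least 2-fold lower and 0.470% at least 2-fold higher. With shRNA3387 in E14 cells Fgf5, Sox3, Sall2 and Pou3f1 were at least 2-fold higher (1.15% of all genes) and Zic2 was at least 2-fold lower (0.653%). With shRNA2863, the hairpin that left more Tet1, Sox3 was at least 2-fold higher (0.587% of all genes) and Zic2 at least 2-fold lower (0.609%). Both are among the members past 2-fold with shRNA3387, and none of the 3 J1 members is past 2-fold with a hairpin. How often genes past 2-fold in one depletion are past it in another was not counted over all genes, so nothing is concluded from this overlap. No member passed the limma test of the difference between the lines, with a lowest adjusted p of 0.332. The median of the 10 differences was -0.24 in J1, 0.39 with shRNA3387 and -0.01 with shRNA2863, beside -0.01, -0.02 and -0.01 over all kept genes. Both hairpins were set against the same scramble array, so their differences are not independent. In bulk RNA, fewer cells of a kind and less RNA per cell cannot be told apart.

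**Figure D2:**
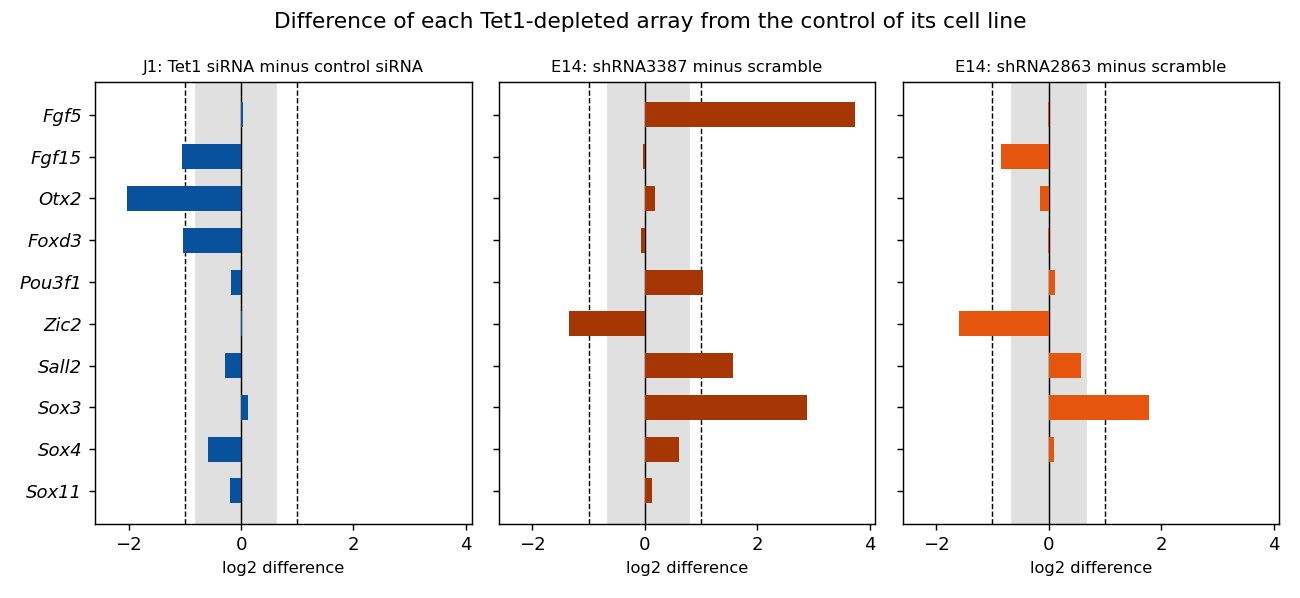
Log2 difference of each Tet1-depleted array from the control array of its line (bars, 1 array against 1) for the 10 members; dashed lines mark 2-fold and grey bands the middle 95% of differences over 13619 genes. Otx2 leads the J1 panel at -2.03, Fgf5 the shRNA3387 panel at 3.74 (from a scramble value under the filter level) and Sox3 the shRNA2863 panel at 1.79.

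No member passed a test of Tet1 depletion over both lines. In the limma fit with a cell line term and a Tet1 term over the 5 arrays (2 residual degrees of freedom), the Benjamini-Hochberg adjusted p of the members ran from 0.718 to 0.989, and 0 of 10 had an unadjusted p under 0.05. Over all genes this fit called 0 of 13619, and 936 (6.87%) had an unadjusted p under 0.05. The largest estimates among the members were those of Sox3 (1.39 ± 0.68 SE), Fgf5 (1.08 ± 1.35), Otx2 (-0.86 ± 0.54) and Zic2 (-0.84 ± 0.39). The estimate of Otx2 turned to 0.01 without either J1 array and that of Zic2 to 0.01 without the scramble array. Only Sox3 was higher in all 3 depletions (13.0% of all genes were), and Sall2, Pou3f1 and Sox4 had opposite signs in J1 and with both hairpins by at least 0.1 each, as 11.1% of all genes had. Fgf15 and Foxd3 were lower in all 3, by as little as -0.04 and -0.02, and 20.5% of all genes were lower in all 3.

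Fgf5 encodes a secreted FGF and is the classical transcript of the implanting epiblast. In J1 cells it read 2.37 (control siRNA) and 2.40 (Tet1 siRNA), and it read 2.91 with scramble shRNA, 6.65 with shRNA3387 and 2.89 with shRNA2863 in E14 cells. The shRNA3387 array alone was above the filter level, and the other 4 cannot be ordered because all lie in background. Set against the filter level of the dimmer array, the shRNA3387 value was at least 11.6-fold higher than the scramble array and at least 11.8-fold higher than shRNA2863. The second Fgf5 probe set never reached the filter level, at 1.90 to 1.93. Averaged over the hairpins the limma estimate was 1.86 ± 2.20 (SE, 1 residual degree of freedom, adjusted p = 0.846), so the spread between the hairpins exceeded the effect.

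Genes with the levels most like those of Fgf5 over the 5 arrays, by Euclidean distance of centred log2 values, were Slc35d3 (distance 0.94), Pdzrn3 (1.73), 2900055J20Rik (1.87), Ldb2 (1.90) and Myb (1.91). Slc35d3 read 5.66 with shRNA3387 and between 2.54 and 2.66 on the other arrays, and Pdzrn3 read 4.86 against 2.51 to 2.95. The transcription factor Myb read 6.86 with shRNA3387 and 4.29 to 5.21 on the others. This likeness rests on a single array.

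Fgf15, a secreted FGF that acts in the midbrain and later as an endocrine signal, was higher in E14 than in J1 cells. Values were 5.05 for control and 4.00 for Tet1 siRNA in J1, and 6.19, 6.15 and 5.35 with scramble shRNA, shRNA3387 and shRNA2863. Thus the Tet1 siRNA array was the lowest of the 5, 2.07-fold under its control, and all 3 E14 arrays were above both J1 arrays. With shRNA2863 it was 1.79-fold lower than with the scrambled hairpin, and 151 of 13619 genes were lower still on that comparison; with shRNA3387 it differed by -0.04.

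Otx2, a homeobox factor needed for the exit from the naive state and for the forebrain, gave the largest difference of the members in J1 cells. Its single probe set read 6.58 in control cells and 4.55 with Tet1 siRNA, 4.08-fold lower, and only 6 of 13619 genes lay lower on that comparison. In E14 cells it read 8.71 with scramble shRNA, 8.89 with shRNA3387 and 8.56 with shRNA2863, within 1.13-fold of the scramble array. The E14 arrays were all above the J1 arrays. The difference of the Tet1 effect between the lines was 2.05 ± 0.32 (SE) in limma, with an unadjusted p of 0.0193 and an adjusted p of 0.344, so it did not pass. Of the Otx2 values, only those of the hairpin pair inform its error, and limma draws this error toward the spread of other genes of similar level. The fit applies the same spread to the J1 arrays, where no replicate can test it.

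Genes whose levels followed Otx2 most closely were Pdzd4 (distance 0.78), Sycp3 (1.04), Smim4 (1.08), the Wnt effector Lef1 (1.09) and the retinoic acid binding protein Crabp1 (1.19). Pdzd4 read 6.52 and 5.31 on the J1 arrays and 8.39 to 8.85 on the E14 arrays. Lef1, which is itself in the list of other formative and primed genes, read 5.32 and 4.61 in J1 and 8.07, 8.90 and 8.28 in E14. That list was chosen with earlier results of these data known.

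Foxd3, a forkhead factor of the epiblast and of the neural crest, was, like Otx2, higher on every E14 array than in J1 cells and lowest with Tet1 siRNA. The J1 arrays read 4.98 (control) and 3.94 (Tet1 siRNA), and the E14 arrays 6.39, 6.32 and 6.37 for scramble, shRNA3387 and shRNA2863. The 3 E14 values lay within 0.07 of each other, and the J1 siRNA value was 2.06-fold under its control. The difference of the Tet1 effect between the lines was 0.995 ± 0.13 (SE; limma unadjusted p = 0.0123, adjusted p = 0.332). In this test of the lines against each other 3 of 10 members, Otx2, Foxd3 and Zic2, had an unadjusted p under 0.05, as 13.9% of all genes did, and 0 of 13619 genes passed after adjustment.

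Differences on the J1 pair of arrays were also seen in other gene groups, and a single pair has no test. Of all 13619 kept genes 6198 were higher and 6865 lower with Tet1 siRNA. All 18 genes of a naive-state list were lower with Tet1 siRNA, 4 of them at least 2-fold, with a median of -0.81, among them Tcl1 (-1.46) and Gbx2 (-1.29). Of 6 kept trophectoderm markers 5 were higher, 3 at least 2-fold, led by Plac1 at 2.70; their summed linear signal was 688 in the control and 1067 with Tet1 siRNA, and Cdx2, Elf5 and Gata3 were under the filter level on all arrays. The summed signal of 12 kept fibroblast markers was 617 on both J1 arrays, although 4 of them were higher and 7 lower with Tet1 siRNA. Acta2, at 8.08 and 7.95, was the largest part of both sums, and it read 8.62 with scramble shRNA in feeder-free E14 cells. In the control 12 of 14 measured markers were above the filter level and 10 with siRNA, and Postn and Dcn were under it everywhere. All 8 stem cell identity markers were lower with Tet1 siRNA, none by 2-fold, with a median of -0.41 and a summed signal of 28100 in the control and 22245 with siRNA. Of 8 kept primitive endoderm markers 7 were higher, 0 by 2-fold, with a summed signal of 2497 and 3369. Sparc, named after its values were seen, made up most of this sum, at 10.95 and 11.38. Lama1 differed by -0.54, and Sox7, near the filter level, by 0.04. Foxa2 and Pdgfra were under the filter level on all arrays. The part of these gene groups in the lower Otx2, Fgf15 and Foxd3 was not tested.

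Pou3f1, the POU factor also called Oct6, is an early gene of the primed epiblast and of neural commitment. Its brighter probe set read 8.40 and 8.22 in J1 cells with control and Tet1 siRNA, and 8.82, 9.85 and 8.94 in E14 cells with scramble, shRNA3387 and shRNA2863. The shRNA3387 array stood highest, 2.04-fold over the scramble array, and the shRNA2863 array was 1.09-fold over it. After quantile normalization the difference with shRNA3387 was 0.97, just under 2-fold. The second probe set gave the same order with a larger step, at 5.58, 7.24 and 5.62 on the same E14 arrays, a difference of 1.66 with shRNA3387 and 0.04 with shRNA2863. In J1 both probe sets were lower with Tet1 siRNA, by differences of -0.18 and -0.57.

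Zic2, a zinc finger factor that takes part in the move from naive to primed enhancers and in forebrain development, was lower with both hairpins. It read 6.44 with scramble shRNA, 5.09 with shRNA3387 and 4.85 with shRNA2863, and 3.65 and 3.66 on the J1 control and siRNA arrays. The hairpin arrays were thus 2.55-fold and 3.01-fold under the scramble array, and 28 and 7 of 13619 genes were lower still on these comparisons. Both hairpin differences rest on the 1 scramble array, which is the highest of the 5. The mean hairpin effect was -1.47 ± 0.15 (SE), the smallest unadjusted p of the members in the E14 fit (0.00802), with a limma adjusted p of 0.351. It was the only member with an unadjusted p under 0.05 there, where 11.0% of all genes were and 0 of 13619 passed after adjustment. The difference of the effect between the lines was -1.48 ± 0.24 (SE; limma adjusted p = 0.344). Both J1 values are near the filter level of those arrays (3.03 and 3.06), which left little room for a fall in J1.

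Sall2, a zinc finger factor of the Spalt family expressed in the epiblast and the nervous system, was higher with both hairpins. It read 6.75 with scramble shRNA, 8.32 with shRNA3387 and 7.33 with shRNA2863, and 6.05 and 5.77 in J1 cells with control and Tet1 siRNA. That is 2.97-fold and 1.495-fold over the scramble array, with 28 and 495 genes higher still, and 1.21-fold lower in J1. The hairpin effect was 1.08 ± 0.59 (SE; limma adjusted p = 0.658).

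Sox3, a SoxB1 factor of the epiblast and neural progenitors, was the member with the largest difference with shRNA2863 and the second largest with shRNA3387. It read 3.73 with scramble shRNA, 6.61 with shRNA3387 and 5.52 with shRNA2863, and 5.01 and 5.14 in J1 cells with control and Tet1 siRNA. The scramble array was the lowest of all 5, below both J1 arrays, so the folds of 7.36 and 3.46 also rest on that 1 array. The scramble value of 3.73 is near the filter level of that array, 3.12. With shRNA2863 no gene of 13619 was higher, and with shRNA3387 2 were. The hairpin effect was 2.34 ± 0.64 (SE), with an unadjusted p of 0.0595 and a limma adjusted p of 0.47. A second Sox3 probe set was under the filter level everywhere, between 2.06 and 2.10, and with the median of both probe sets the differences were 1.43 and 0.89.

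The genes with levels most like those of Sox3 were Prelid3a (distance 0.89), the imprinted antisense RNA Kcnq1ot1 (0.94), the reelin receptor Lrp8 (0.94), Gpsm1 (0.95) and Insyn2a (0.96). Lrp8 read 4.12 with scramble shRNA, 5.85 with shRNA3387 and 5.02 with shRNA2863.

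Sox4 and Sox11 are SoxC factors of progenitor cells. Sox4 read 9.29 and 8.71 in J1 cells with control and Tet1 siRNA, and 8.99, 9.59 and 9.09 with scramble, shRNA3387 and shRNA2863. It was 1.495-fold lower in J1 with siRNA and 1.52-fold higher with shRNA3387. Sox11 read 7.76 and 7.57 in J1 and 7.77, 7.90 and 7.77 in E14, the narrowest range of the members at 0.33. The Sox4 arrays of the lines overlapped, and no difference of either gene reached 2-fold in the brightest probe set.

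The other probe sets of Sox4 did not follow the brightest one. Of its 8 probe sets, 4 were above the filter level on all arrays, and with shRNA3387 2 of these were higher and 2 lower, from -0.22 to 0.60. With shRNA2863 1 was higher and 3 lower, from -0.1 to 0.1. A further probe set was above the filter level in J1 cells only, at 3.95 with control and 4.70 with Tet1 siRNA, opposite in sign to the brightest. For Sox11, 5 of 6 probe sets were above the filter level on all arrays. All 5 were higher with shRNA3387 than with shRNA2863, by 0.13 to 0.52, 4 of 5 were lower with Tet1 siRNA in J1, and with shRNA2863 4 were lower than with scramble and 1 was equal. The probe sets of a gene share each array and are not replicates.

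**Figure D3:**
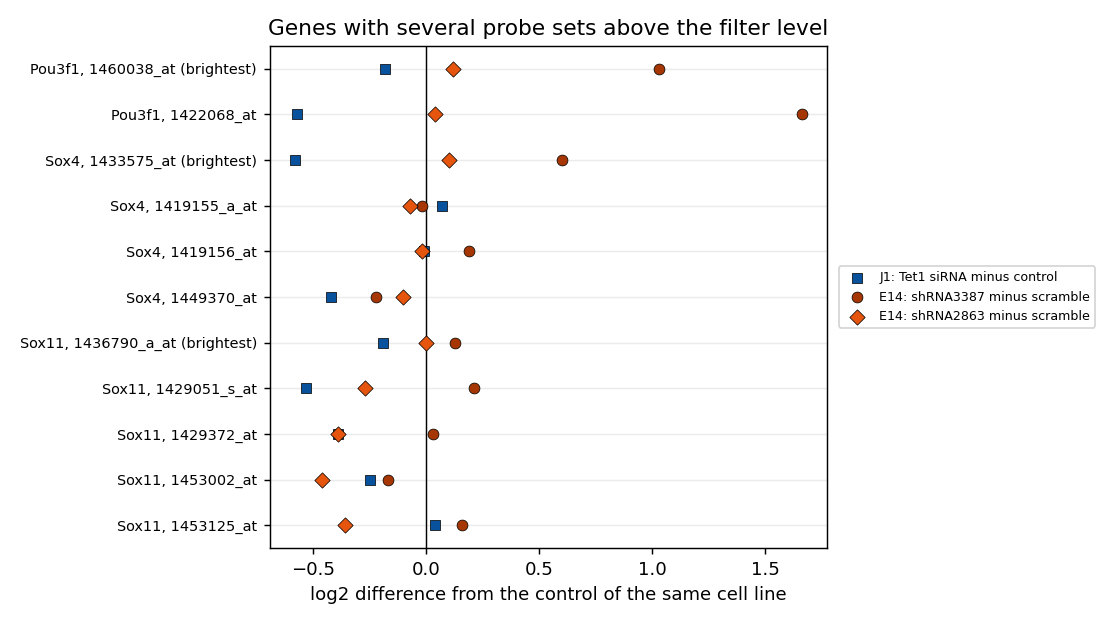
Log2 difference from the control of the same line for every probe set of Pou3f1, Sox4 and Sox11 above the filter level on all 5 arrays; each point is 1 array against 1. The shRNA3387 points of both Pou3f1 probe sets lie at 1.03 and 1.66, while those of Sox4 spread from -0.22 to 0.60.

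Set directly against each other, the hairpin arrays gave higher values with shRNA3387 for 9 of the 10 members and a lower one for 1, where 5450 of 13619 genes were higher and 57.8% lower. This comparison does not use the scramble array. Fgf5 (3.76, with shRNA2863 under the filter level) and Sox3 (1.09) passed 2-fold, as 0.661% of all genes did. Sall2 (0.99), Pou3f1 (0.91) and Fgf15 (0.80) came next, with 90, 120 and 190 genes higher still, which makes 5 members at least 1.5-fold different against 5.65% of all genes. Sox4 (0.50), Otx2 (0.33), Zic2 (0.24) and Sox11 (0.13) were within the middle 95% of all differences, -0.55 to 0.66, and Foxd3 (-0.05) was the exception in sign. The median was 0.65 for the members and -0.01 for all kept genes. Tet1 was lower on the shRNA3387 array, but a reagent and a Tet1 level cannot be told apart with 1 array each. Of 7 kept neuroectoderm markers, which share the later roles of many members, 2 were higher and 5 lower with shRNA3387 than with shRNA2863. Their summed linear signal was 349 and 355 on these arrays, and Sox1, Neurog1, Neurog2, Pax3, Nkx6-2 and Olig2 were under the filter level on all 5. Against the scramble array, 16 of the 18 naive-state genes were lower with shRNA3387 (median -0.29, 2 at least 2-fold) and 10 with shRNA2863 (median -0.04, 1 at least 2-fold). Of all 13619 kept genes 7757 and 7503 were lower on these comparisons, so the count with shRNA2863 is near that of all genes. Gbx2 differed by -1.32 and -1.25. The part of the naive-state genes in the hairpin differences of the members was not tested.

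The members were mostly higher in E14 than in J1 cells. For 8 of 10 (all but Sox3 and Sox4) every E14 array was above both J1 arrays, which was so for 27.1% of all genes; for Sox11 the gap was only 0.01, and 4 of the 5 Fgf5 values are at background. The limma cell line term, from 3 E14 and 2 J1 arrays and adjusted for Tet1 depletion, passed for Otx2 at 3.30 ± 0.54 (SE; adjusted p = 0.0397) and Foxd3 at 1.98 ± 0.27 (SE; adjusted p = 0.0303). That is 2 of 10 members, beside 6.39% of all genes called higher in E14 in the same test. Zic2 (1.94 ± 0.39, adjusted p = 0.0564) and Fgf15 (1.49 ± 0.32, adjusted p = 0.0638) missed the threshold. Both passed in 2 of 7 alternatives that kept every array, quantile normalization and the stricter filter; over these 7 the limma adjusted p ran from 0.0305 to 0.0873 for Zic2 and from 0.0355 to 0.107 for Fgf15. Sox4 (0.23 ± 0.30) had an adjusted p of 0.646, but with the median over its probe sets limma called it lower in E14 (-0.50 ± 0.05, adjusted p = 0.0172). Sall2 (1.47 ± 0.49), Fgf5 (1.59 ± 1.35) and Pou3f1 (0.85 ± 0.37) had limma adjusted p of 0.14, 0.481 and 0.224. With any of the 5 arrays left out, 1 residual degree of freedom remained and no gene passed, so that Otx2 then had adjusted p of 0.0902 to 0.132 and Foxd3 of 0.0902 to 0.122.

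Between the control arrays alone, Zic2 was 6.92-fold, Otx2 4.38-fold, Foxd3 2.66-fold and Fgf15 2.20-fold higher in E14 (3.52% of all genes were at least 2-fold higher), while Sox3 was 2.43-fold lower (4.84%). Sall2 (0.70), Pou3f1 (0.42), Sox11 (0.01) and Sox4 (-0.30) were within 2-fold, and both Fgf5 values are under the filter level. The J1 value of Zic2 (3.65) and the scramble value of Sox3 (3.73) are near the filter level, so the sizes of these folds are uncertain. The summed signal of the fibroblast markers was 617 on both J1 arrays and 674, 395 and 729 on the scramble, shRNA3387 and shRNA2863 arrays, with Acta2 at 8.08, 7.95, 8.62, 7.16 and 8.83 on the arrays in that order. Limma called 1 of the 12 lower in E14, where 1066 of all 13619 genes were called lower. This was Col1a2, a collagen gene named after its values were seen, at -2.47 ± 0.10 (SE, limma adjusted p = 0.0129). It read 6.24 and 5.95 in J1 and 3.59 to 3.62 in E14. Between the control arrays 9 of the 12 fibroblast markers were higher in E14 and 3 lower. The part of feeder RNA in the differences between the lines was not tested. For Otx2, Fgf15 and Foxd3 the gap between the lines was wider among depleted than among control arrays, the Tet1 siRNA array being the lowest of the 5.

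**Figure D4:**
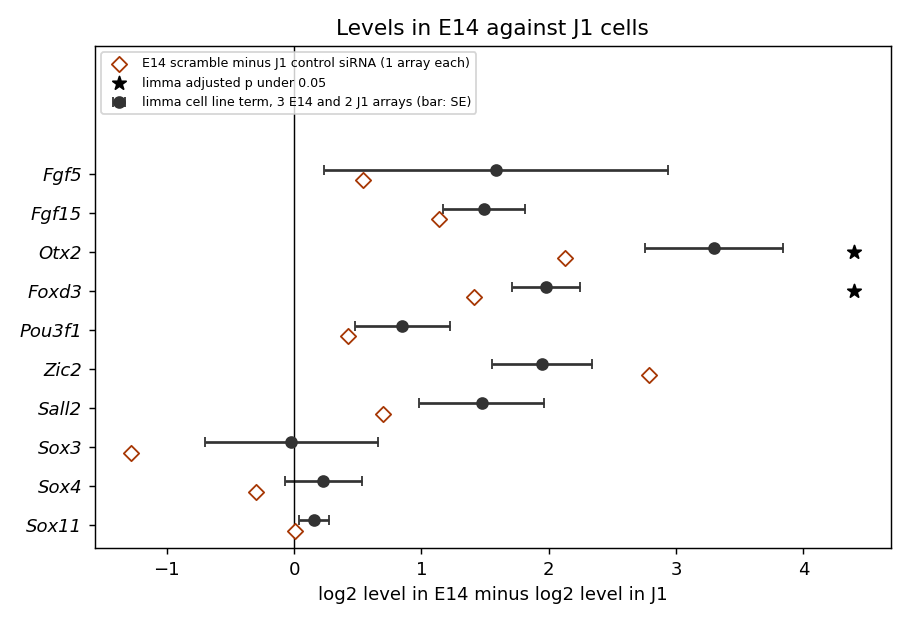
Log2 level in E14 minus log2 level in J1 for the 10 members; filled points are the limma cell line term over 3 E14 and 2 J1 arrays with its SE, open diamonds the 2 control arrays, and stars mark an adjusted p under 0.05. Otx2 (3.30) and Foxd3 (1.98) carry stars, and Sox3 lies at -0.02 in the fit and at -1.28 between controls.

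Other genes of the formative and primed state were taken from a list of 25, of which 24 were measured and 23 kept. None was 2-fold different in any of the 3 depletions, where only 0.470% to 1.15% of all genes were, per direction and depletion. In J1 17 were lower and 6 higher with Tet1 siRNA (median -0.38, all genes -0.01); with shRNA3387 15 were higher and 8 lower (median 0.13), and with shRNA2863 7 higher and 16 lower (median -0.16). The members with the largest mean size of difference were the epithelial keratin Krt18 (0.71 in J1, -0.59 with shRNA3387 and 0.73 with shRNA2863), Lef1 (-0.71, 0.83 and 0.21) and Zic5 (-0.97, 0.10 and -0.49). For Tet1 depletion 1 of the 23 had an unadjusted limma p under 0.05, as 6.87% of all genes did. Limma called 0 of the 23 after adjustment, and 0 of all 13619 genes. For the cell line term it called 4 higher in E14, namely Lef1 (3.45 ± 0.39 SE), Sfrp2 (2.30 ± 0.39), Zic5 (1.95 ± 0.29) and Etv5 (1.15 ± 0.15), and 1 lower, Rhoc (-1.29 ± 0.20), where 14.2% of all genes were called either way. Sfrp2, Etv5 and Rhoc were named after their values were seen.

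The FGF pathway, through which Fgf5 and Fgf15 act, showed no 2-fold difference in any depletion among 18 kept genes. Of all kept genes only 0.470% to 1.15% passed 2-fold, per direction and depletion, so a count of 0 in 18 is near that share. In J1 7 were higher and 11 lower, with shRNA3387 11 and 7, and with shRNA2863 10 and 8. Fgf8, the ligand of the gastrula, read 2.34 and 3.30 in J1 with control and Tet1 siRNA, the first under the filter level. The receptor Fgfr1 differed by 0.20, 0.66 and 0.30, and Fgfr2 by -0.10, -0.26 and -0.78, in J1, shRNA3387 and shRNA2863. For Tet1 depletion 0 of the 18 had an unadjusted limma p under 0.05, where 6.87% of all genes did. Limma called 0 of the 18 after adjustment, and 0 of all 13619 genes.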

How the data were processed

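Total RNA of 5 samples was measured on Affymetrix arrays. The deposited table gives log2 summaries per probe set, a scale inferred from the range of 1.38 to 14.12. How the authors corrected background, summarised and normalized is not given in the sources used here, and nothing was renormalized. Gene names came from the platform annotation (34958 of 45101 with 1 symbol, 34754 of them matched by Entrez identifier to RefSeq GRCm38.p6, 0 symbols changed). The brightest probe set stood for its gene (18193 genes), and genes over the 40th percentile on at least 1 array were kept (13619). Array correlations ran from 0.966 to 0.996. No depth applies; the number of arrays limits the precision.

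Tests used limma 3.58.1 in R 4.3.3 (lmFit and eBayes with trend, two-sided, Benjamini-Hochberg over all kept genes, threshold 0.05), tested on simulated data. One fit had a cell line and a Tet1 term (2 residual degrees of freedom); a fit of 4 means (1 residual degree of freedom) gave the hairpin effect and its difference from J1. Pairs of arrays were compared by size only. The members and the gene lists were chosen with earlier results of these data known. Genes named are the members, Tet1, up to 3 per list by mean size of difference, and the 5 nearest profiles of Fgf5, Sox3 and Otx2; others are marked. Alternatives were other scalings, filters, probe set rules, fold thresholds and models, and each array left out. Promoters are RefSeq windows of GRCm38.p6.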

Additional observations from a re-analysis of the deposited data

Results flagged for a closer look

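In their brightest probe sets, Sall2, Sox4 and Pou3f1 were lower with Tet1 siRNA in J1 cells and higher with both hairpins in E14 cells. Each of these differences was at least 0.1, and 11.1% of all genes had opposite signs of this size in either direction. The second Pou3f1 probe set differed by only 0.04 with shRNA2863. Of the 4 Sox4 probe sets above the filter level on all arrays, 1 was higher and 3 lower with shRNA2863. The Tet1 effect of Sall2 was 1.36 higher in E14 than in J1 (limma adjusted p = 0.595), that of Sox4 0.93 (adjusted p = 0.505) and that of Pou3f1 0.76 (adjusted p = 0.746). The test of the difference did not pass for any of them, both hairpins share the scramble array, and with the median over its probe sets the difference of Sox4 was 0.05.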

How the results depend on the processing

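No paired analysis was possible because each group holds 1 array. The count of members past 2-fold was within 1.5 times the reported one under both other scalings, both other filters, the median over probe sets and a 1.5-fold threshold, with 2 exceptions: with shRNA2863 it was 1 (Zic2) in place of 2 with the median over probe sets, and between the hairpins it was 5 in place of 2 at 1.5-fold (5.65% of all genes). The cell line term called 1936 genes and 0 (0 to 0) with any 1 array left out, where 1 residual degree of freedom remained. Left-out arrays also turned the sign of some estimates, those of Otx2 and Zic2 included. The Tet1 term over both lines ran from -2.03 to 0.01 for Otx2, -0.18 to 0.57 for Pou3f1, -0.28 to 1.07 for Sall2, -0.19 to 0.07 for Sox11, -0.58 to 0.35 for Sox4 and -1.47 to 0.01 for Zic2; the cell line term ran from -1.28 to 0.93 for Sox3 and -0.30 to 0.63 for Sox4. The dim second probe sets gave -0.02 and -0.01 for Fgf5 (shRNA3387 against scramble and against shRNA2863) and -0.02, -0.01, -0.01 and 0.04 for Sox3 (shRNA3387, shRNA2863, between hairpins, between lines). The cell line term of Sox3 turned to 0.05 after quantile normalization and 0.21 without a Tet1 term. That of Sox4 turned to -0.50 with the median over probe sets, where limma called it lower in E14 (adjusted p = 0.0172). This median rests on dim probe sets, as just 4 of 8 were above the filter level on all arrays. The E14 effect of Otx2 turned to -0.02 after quantile normalization, and those of Sox11 and Sox4 to -0.11 and -0.01 with the median over probe sets. Otherwise the cause was not tested.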

Other observations

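Of 12 kept relatives in the Sox, Zic, Otx, Pou3f, Sall and Fox families, 0 were 2-fold different in any depletion. Only 0.470% to 1.15% of all genes were, per direction and depletion. Sox1, Otx1, Crx, Pou3f4, Foxd1, Foxd2 and Foxd4 were under the filter level on all arrays. Zic5, in the same family as Zic2, read 7.13 and 6.16 in J1 cells with control and Tet1 siRNA and 8.64, 8.74 and 8.15 in E14 cells with scramble, shRNA3387 and shRNA2863, while Zic4 stayed between 3.07 and 3.52. Sall4, which maintains stem cells, differed by -0.66, -0.14 and -0.19 in J1, shRNA3387 and shRNA2863, where Sall2 differed by -0.28, 1.57 and 0.58.

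Neuroectoderm markers, among them later neuronal genes such as Tubb3, were mostly lower with the hairpins. None was 2-fold higher, where 1.15% of all genes were with shRNA3387 and 0.587% with shRNA2863. Of 7 kept genes 6 were lower with shRNA3387 (median -0.25) and 7 with shRNA2863 (median -0.20). Of all 13619 kept genes 7757 and 7503 were lower. Both counts rest on the same scramble array, on which Pax6 (5.33) and Tubb3 (8.36) were highest of the 5. They also include moves at background. Lhx5, named after its values were seen, read 3.07, 3.05 and 3.06 with scramble, shRNA3387 and shRNA2863, not above the filter level. Pax6, an eye and forebrain factor, differed by -0.73, -0.72 and -1.34 in J1, shRNA3387 and shRNA2863, the neuronal tubulin Tubb3 by -0.48, -0.81 and -0.62, and the filament gene Nes by 0.80, -0.25 and -0.20. These are differences between single arrays. Limma called 0 of 7 kept neuroectoderm genes for Tet1 depletion, and 0 of all 13619 genes. An unadjusted limma p under 0.05 was found for 2 of the 7, both lower, and for 6.87% of all genes (4.01% lower).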
